A study of Mus musculus with 17 samples.

Results

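Bone marrow plasmacytoid dendritic cells given the oligonucleotide CpG-A (3 arrays) were compared with the same cells kept in medium (2 arrays). The arrays were taken by sample title, and they are 5 of the 17 in the series. All probe sets with exactly 1 gene symbol were used, which gave 19751 genes at 1 probe set each. The cells came from C57BL/6 mice, were depleted of other cells with magnetic beads and were then sorted for intermediate CD11c, B220 and Siglec-H. CpG-A (oligonucleotide 2216) was given at 6 µg/ml for 19 to 23 h, and the medium group received neither CpG nor cytokine. A second pair of groups, which shares no array with the first, was used for comparison. In it, cells given LIF at 10 ng/ml for 20 to 24 h (3 arrays) were compared with cells given LIF and, after 1 h, CpG-A for 19 to 23 h (3 arrays). Whether replicates came from separate mice, pools or cultures is not given in the labels. The p-values therefore measure only the spread between these samples, which may be technical.

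Plasmacytoid dendritic cells sense DNA with the endosomal receptor TLR9, which signals through the adaptor MyD88. In this cell type the pathway branches to IRF7, which drives type I interferon genes, and to NF-kB, which drives cytokines and co-stimulatory molecules. CpG-A forms aggregates that stay in early endosomes and is known as a strong inducer of interferon, and secreted interferon then acts back on the cells through its receptor and a complex that holds STAT2 and IRF9. The cells have a large endoplasmic reticulum, and IRE1 with its target XBP1 helps to maintain it.

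The deposited values are the digits of intensities whose decimal mark was lost, so each value is known only up to a factor of 10. On the log2 scale a difference is therefore known up to steps of 3.32. The value nearest to 0, here called the nearest reading, lies between -1.66 and 1.66 and stands for at most a 3.16-fold difference. Its alternative lies 3.32 away on the other side of 0. Every reading has one, also where only the nearest is printed, as for Hspa5 (0.98, or -2.35) and Atf4 (1.00, or -2.32). A gene was called when limma's moderated test gave an adjusted p under 0.05. Its direction was taken as read (higher or lower) for nearest readings up to 1.11 in size (2.15-fold), where the alternative is a change of at least 4.64-fold the opposite way. Beyond that limit the 2 readings nearest to 0 are given and the direction is open. Readings further from 0, at more steps of 3.32, are possible for any gene and are not printed. Where a count of members by direction given here moved by over 1.5 times at a narrower limit of 0.83, the count at that limit follows. A change near 10-fold reads as none, so the lack of a call does not show that a gene kept its level. Levels are lost, so no gene could be called present or absent, and the labelled cell type could not be checked by the level of its markers.

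Of the 19751 genes, 3300 were called (16.7%). Of these, 970 read higher with CpG-A (4.91% of genes), 1413 read lower (7.15%) and 917 were open (4.64%). The groups did not overlap in 8125 genes (41.1%), among them 3290 of those called. For a called gene, a lack of overlap therefore adds little to the call. The median within-group SD was 0.19, and the smallest called reading was 0.35 in size. The median difference between arrays over all genes was 0.175 for the medium pair and 0.183 to 0.2 within CpG-A. Between the groups it was 0.245 to 0.266 for each of the 6 pairs of arrays. Both medium arrays carried weight. Without medium replicate 1, 2128 genes were called, 511 higher and 727 lower. Without medium replicate 3, the counts of higher and lower genes were 546 and 744.

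**Figure D1:**
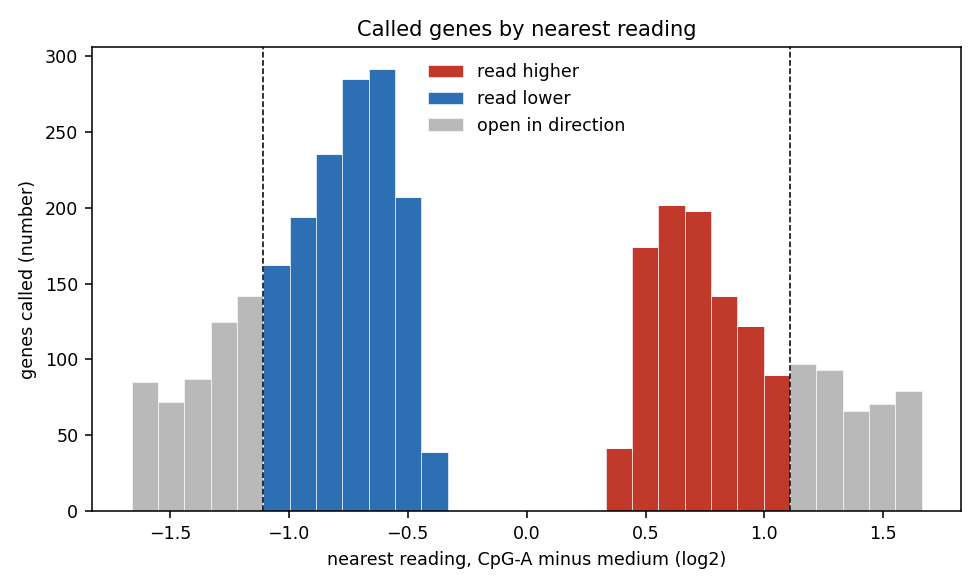
Number of called genes (vertical axis) by nearest reading of CpG-A minus medium on the log2 scale (horizontal axis). Bars are stacked by call, and dashed lines mark the limit on direction at 1.11. Called genes start at a size of 0.35, and 917 lie beyond the limit.

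**Figure D2:**
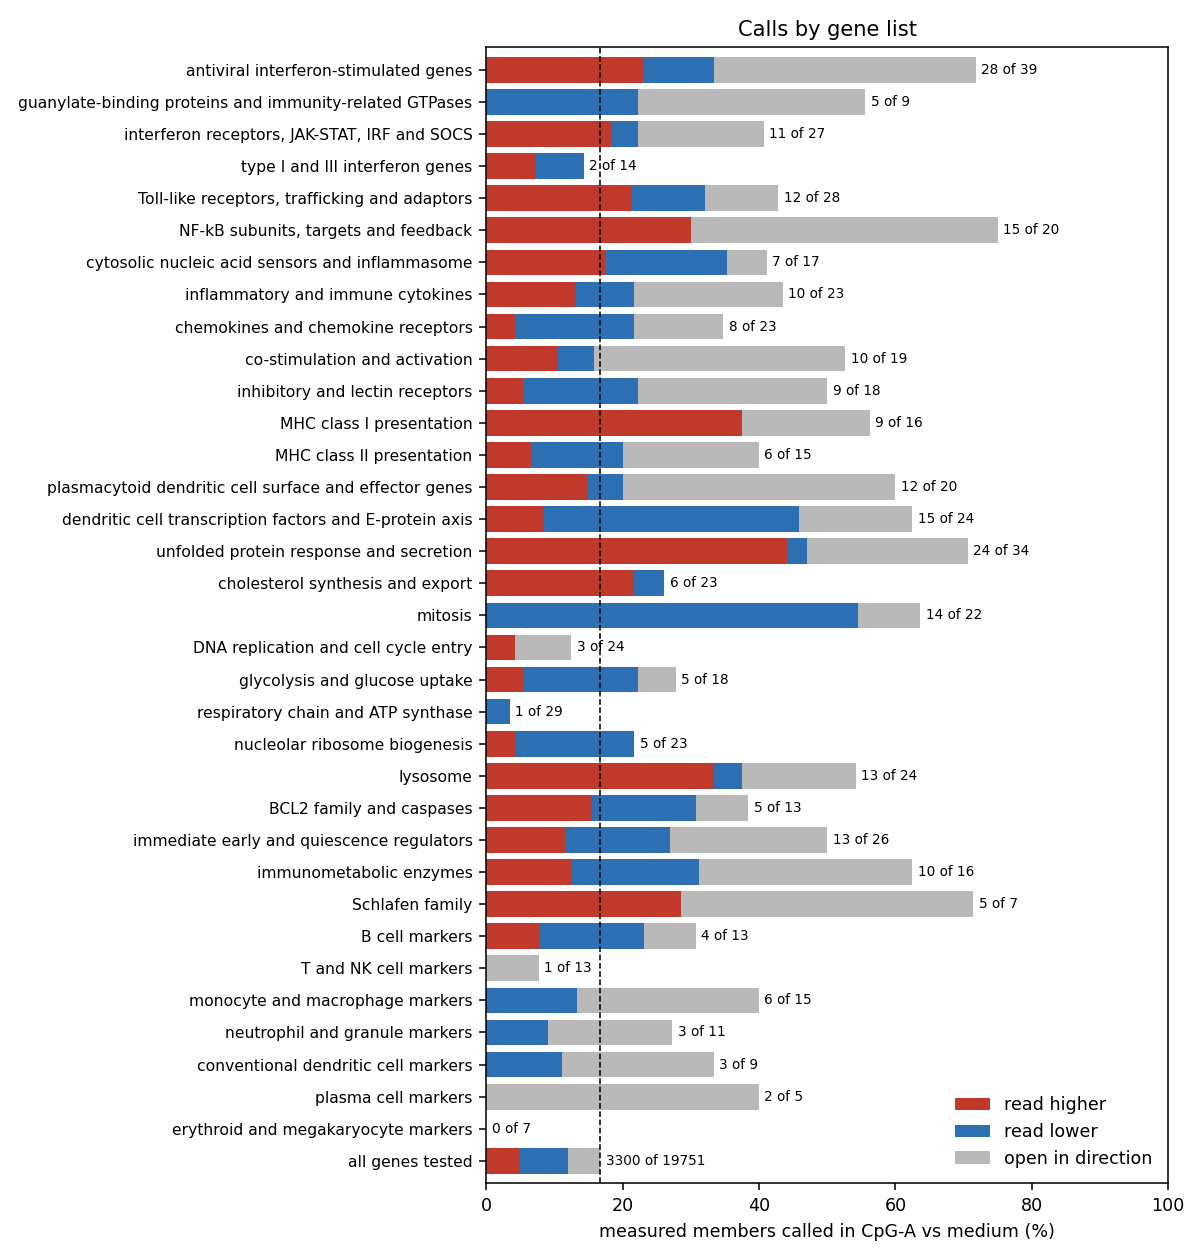
Share of measured members called in CpG-A vs medium (horizontal axis, percent) for each gene list, split into members that read higher, lower or are open in direction. Numbers give members called of members measured, and the dashed line is the share over all genes (16.7%). NF-kB genes (15 of 20), antiviral genes (28 of 39) and the unfolded protein response (24 of 34) have high shares, and the respiratory chain (1 of 29) a low one.

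Of 34 measured genes of the unfolded protein response and secretory pathway, which fold and export secreted proteins, 15 read higher with CpG-A. In all 24 were called (70.6%, against 16.7% of all genes), with 1 lower and 8 open. At the limit of 0.83, 9 read higher and 14 were open. Their median reading was 0.66, against -0.02 over all genes. Every list median given here counts open members at their nearest reading. Relative to the medium mean, Hspa5, the main chaperone of the endoplasmic reticulum, was at 1.01, 0.87 and 1.05 in the CpG-A arrays and at 0.05 and -0.05 in medium. The reading of Hspa5 was 0.98 ± 0.12 (SE, 1.97-fold, adjusted p = 1.53e-05). Its co-chaperone Dnajb11 was at 0.92, 1.09 and 1.12 against -0.01 and 0.01, a reading of 1.04 ± 0.12 (adjusted p = 1.09e-05). Manf, a secreted stress factor, was at 0.90, 0.97 and 0.91 against 0.07 and -0.07 and read 0.93 ± 0.11 higher (adjusted p = 1.40e-05). The groups did not overlap in Dnajb11 and Manf either.

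Members of all 3 sensor branches were among those called. Atf4, the transcription factor downstream of the kinase PERK, was at 1.00, 0.96 and 1.03 against -0.10 and 0.10, and read 1.00 ± 0.13 higher. Chac1, a target of the ATF4 branch, read 1.10 ± 0.21 higher, close to the limit on direction. Atf6, a sensor cleaved on its way through the Golgi, read 0.68 ± 0.14 higher. Ern1, which encodes IRE1, was the member that read lower, at -0.68, -0.90 and -0.88 against -0.04 and 0.04 (-0.82 ± 0.15, adjusted p = 6.15e-04; or 2.50). Xbp1, whose transcript IRE1 splices, read 0.56 ± 0.17 higher, but the call was lost without medium replicate 1 (0.48, adjusted p = 0.212), medium replicate 3 (0.65, adjusted p = 0.0719), and the second (0.51, adjusted p = 0.088) or the third CpG-A array (0.57, adjusted p = 0.0569). The array cannot separate the spliced from the unspliced form.

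Genes that clear misfolded proteins were also called. Syvn1 and Sel1l, the ubiquitin ligase and adaptor of the degradation complex, read 0.79 ± 0.14 and 0.69 ± 0.13 higher. Dnajb9, a co-chaperone of IRE1, read 0.90 ± 0.16 higher, Dnajc3, an inhibitor of eIF2alpha kinases, 0.74 ± 0.13, and the disulphide isomerase Pdia6 0.75 ± 0.14. The open members included Edem2 and Edem1, mannosidase-like factors of the same clearance, at 1.52 ± 0.14 (or -1.80) and -1.55 ± 0.15 (or 1.78). Ddit3, the transcription factor CHOP, was at -1.63 ± 0.16 (or 1.69) and the chaperone Hyou1 at 1.45 ± 0.15 (or -1.87). The chaperone Hsp90b1 (0.29 ± 0.12), the oxidase Ero1a (0.02) and Herpud1 (0.08) were not called.

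The promoters of this list were searched for the endoplasmic reticulum stress element (CCAAT and CCACG separated by any 9 bases) on both strands, from 250 bases before to 50 after each start site (RefSeq, GRCm38.p6). It was present in 7 of 29 members with a promoter entry (24.1%), against 21 of 15434 genes (0.136%). Of the 7, 5 were called, against 20 of the 29 members with an entry. A match is a description of the letters and not a bound site. The 250 bases before the start site of Hspa5 are shown first, because it is the textbook target of this element, and the sites of the other 6 members follow with 6 flanking bases, 2 of them in Hsp90b1. Capitals mark the fixed letters of the element, and every site is written in the orientation of the motif.
Hspa5, chr2:34771840-34772089, plus strand: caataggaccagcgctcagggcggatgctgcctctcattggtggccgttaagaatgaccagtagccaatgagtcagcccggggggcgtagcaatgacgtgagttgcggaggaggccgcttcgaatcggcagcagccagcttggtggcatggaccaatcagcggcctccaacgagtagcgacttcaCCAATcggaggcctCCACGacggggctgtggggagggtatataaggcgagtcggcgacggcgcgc
Dnajc3, chr14:118937821-118937851: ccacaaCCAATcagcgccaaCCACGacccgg
Syvn1, chr19:6046526-6046556: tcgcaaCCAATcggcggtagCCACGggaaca
Pdia6, chr12:17266485-17266515: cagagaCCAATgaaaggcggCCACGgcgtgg
Creld2, chr15:88819514-88819544: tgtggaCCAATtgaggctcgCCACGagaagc
Hsp90b1, first site, chr10:86705632-86705662: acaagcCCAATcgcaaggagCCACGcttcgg
Hsp90b1, second site, chr10:86705527-86705557: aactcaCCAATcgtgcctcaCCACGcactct
Ero1b, chr13:12565676-12565706: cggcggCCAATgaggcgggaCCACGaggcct
Hspa5, Dnajc3, Syvn1 and Pdia6 read higher, as given above, and Creld2 was open at 1.23 ± 0.17 (or -2.09). Hsp90b1 (0.29 ± 0.12) and Ero1b (-0.35 ± 0.14) carry the element and were not called.

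Antigen presentation on MHC class I shares part of this machinery. Of 16 measured members of that list, 9 were called (56.2%, against 16.7% of all genes), 6 higher, 0 lower and 3 open. At the limit of 0.83, 3 read higher and 6 were open. The median reading was 0.56. Pdia3, the thiol oxidoreductase of the peptide loading complex, was at 0.95, 1.01 and 1.01 against 0.06 and -0.06, a reading of 0.99 ± 0.12 (adjusted p = 1.20e-05). Calr, the lectin chaperone of the same complex, read 0.69 ± 0.13 higher. Tap2, a subunit of the transporter that brings peptides into the endoplasmic reticulum, read 0.90 ± 0.16 higher, and Tapbpl, a peptide editor, 0.85 ± 0.17. The partner subunit Tap1 was at 1.58, 1.57 and 1.49 against 0.11 and -0.11 and was open (1.55 ± 0.15, or -1.77), as was Tapbp, which tethers the transporter (1.24 ± 0.12, or -2.08). In both open genes the groups were well separated. Psmb9, an immunoproteasome subunit, read 0.64 ± 0.14 higher, and its call was lost without medium replicate 3 (0.54, adjusted p = 0.0609). B2m, the light chain of class I, was not called (0.30, adjusted p = 0.0862).

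**Figure D3:**
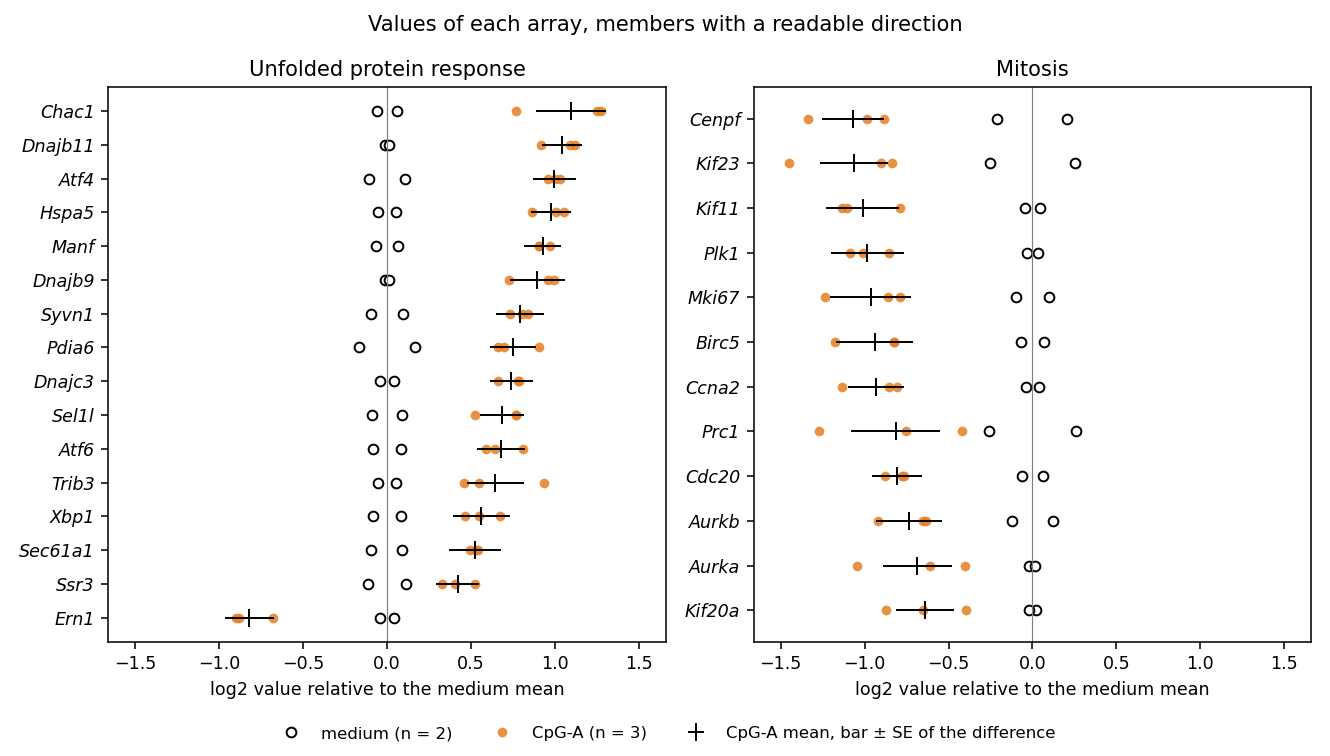
Value of each array relative to the mean of the medium arrays (horizontal axis, log2) for the readable called members of the unfolded protein response (left) and of mitosis (right). Open circles are the 2 medium arrays, filled circles the 3 CpG-A arrays, and the cross gives the CpG-A mean with the SE of the difference. CpG-A arrays lie to the right for every unfolded protein response gene shown other than Ern1, and to the left for every mitotic gene shown.

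Of 22 measured genes of mitosis, 14 were called (63.6%, against 16.7% of all genes), 0 higher, 12 lower and 2 open. Their median reading was -0.81. At the limit of 0.83, 5 read lower and 9 were open. Cdc20, which activates the anaphase-promoting complex, was at -0.88, -0.76 and -0.78 against 0.06 and -0.06 (-0.81 ± 0.15, adjusted p = 7.98e-04). Ccna2, cyclin A, was at -1.13, -0.86 and -0.81 against -0.04 and 0.04 (-0.93 ± 0.17), and the centromere protein gene Cenpf at -0.99, -1.34 and -0.88 against 0.21 and -0.21 (-1.07 ± 0.18). The groups did not overlap in any of these 3 genes, as in 3290 of the 3300 called genes. The mitotic kinase Plk1 read lower by -0.98 ± 0.22, and the spindle motors Kif11 and Kif23 by -1.01 ± 0.22 and -1.06 ± 0.20. The open members were Ccnb2, cyclin B, at -1.34 ± 0.24 (or 1.99), and the ubiquitin-conjugating enzyme Ube2c at -1.30 ± 0.20 (or 2.02). The proliferation marker Mki67 read -0.96 ± 0.24, and its call was lost without medium replicate 1 (-0.86, adjusted p = 0.0936). Cdk1 (0.00, adjusted p = 0.991) and Top2a (-0.64, adjusted p = 0.0587) were not called. Without medium replicate 3, 6 members read lower and 4 were open, and without CpG-A replicate 1, 7 read lower and 6 were open.

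Genes that start S phase and copy DNA had a share of calls near the background. Of 24 measured, 3 were called (12.5%, against 16.7% of all genes), and the median reading was 0.10. Cdkn1b, which encodes the cell cycle inhibitor p27, was open at -1.46 ± 0.15 (or 1.86), Ccnd2, cyclin D2, was open at 1.20 ± 0.22 (or -2.12), and Ccne2, cyclin E2, read 0.99 ± 0.23 higher, a call lost without medium replicate 1 (0.85, adjusted p = 0.0852). The 6 MCM helicase genes gave readings from -0.38 (Mcm7) to 0.29 (Mcm3), and none was called by limma, with the unadjusted p of Mcm7 under 0.05. The difference between the mitosis and replication lists was not tested.

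Mitotic genes are known to share a promoter element, the cell cycle genes homology region, together with CCAAT boxes. TTTGAA was found in the promoter window of 14 of 18 mitotic members with an entry (77.8%), against 17.2% of all genes, and CCAAT in 16 of 18 (88.9%), against 41.7%. Both were present in 14 of 18, against 7.92% of all genes, and 10 of these 14 were called. Of all 18 members with an entry, 11 were called. Cdc20 is shown because the element lies next to its start site.
Cdc20, chr4:118437344-118437593, minus strand: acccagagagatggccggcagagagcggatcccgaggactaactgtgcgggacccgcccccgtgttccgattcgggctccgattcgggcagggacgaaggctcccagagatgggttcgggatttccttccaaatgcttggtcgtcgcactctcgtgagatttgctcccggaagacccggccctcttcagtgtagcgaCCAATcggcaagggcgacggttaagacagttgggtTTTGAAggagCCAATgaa
Capitals mark TTTGAA, which ends 12 bases before the start site, and 2 CCAAT boxes, all on the gene's strand.

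The receptor for CpG DNA was itself among the genes that read higher. Tlr9 was at 0.99, 0.87 and 0.94 against -0.10 and 0.10, and read 0.93 ± 0.13 higher (1.91-fold, adjusted p = 4.47e-05). Tlr7, its RNA-sensing relative in the same endosomes, was at 0.93, 1.11 and 0.78 against -0.10 and 0.10 (0.94 ± 0.16 higher). Myd88, the adaptor of both, read 0.67 ± 0.16 higher, and Ikbke, a kinase that activates interferon regulatory factors, 0.84 ± 0.14. Tlr12, a receptor for profilin, read -1.08 ± 0.21 lower (or 2.24). Lgmn, a lysosomal protease that processes TLR9, was open at 1.13 ± 0.18 (or -2.19). Unc93b1 (-0.02) and Slc15a4 (-0.09), which bring these receptors to endosomes and couple them to IRF activation, were not called. In all, 12 of 28 members of the list of Toll-like receptors, trafficking factors and adaptors were called (42.9%, against 16.7% of all genes). Without medium replicate 1, 7 were called.

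Among cytosolic sensors, 7 of 17 were called, and without medium replicate 1 the count was 4. Ifi203, a member of the HIN family of DNA-binding proteins, was at 0.91, 0.87 and 0.91 against 0.02 and -0.02 (0.90 ± 0.16 higher). Zbp1, a Z-nucleic acid sensor that can trigger necroptosis, read 0.76 ± 0.16 higher. Mavs, the mitochondrial adaptor of the RNA helicases, read lower at -1.17, -1.09 and -0.84 against -0.01 and 0.01 (-1.03 ± 0.18, or 2.29). Nod1, a sensor of bacterial peptidoglycan, was open at 1.23 ± 0.23 (or -2.09). The share of these sensors called was 41.2%, against 16.7% of all genes.

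Of 14 measured interferon genes of types I and III, 2 were called (14.3%, near the 16.7% of all genes). A filter on noisy genes (within-group SD up to the 90th percentile) kept only 2 of the 14, and 0 of these were called. Ifnl2, a type III interferon, was at 1.21, 0.58 and 1.39 against -0.14 and 0.14 and read 1.06 ± 0.25 higher (adjusted p = 0.00493; or -2.26), and its call was lost without medium replicate 1 (0.92, adjusted p = 0.0793). Ifna12 was at -0.51, -1.49 and -1.23 against 0.02 and -0.02 and read -1.08 ± 0.25 (adjusted p = 0.00523; or 2.24). Both readings were close to the limit on direction, and in both genes the CpG-A arrays were spread. The genes that were not called were Ifnb1 (0.48, or -2.85), Ifna2 (-0.98, or 2.34), Ifna4 (-0.19), Ifna5 (0.19), Ifna9 (0.31), Ifna11 (0.04), Ifna13 (0.50), Ifna14 (0.44), Ifna16 (-0.10), Ifnab (-0.45), Ifne (0.10) and Ifnk (-0.62). The Ifna genes resemble each other closely in sequence, and a probe set of one may bind transcripts of another.

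Downstream of the interferon receptor, 11 of 27 members of the receptor, JAK-STAT, IRF and SOCS list were called (40.7%, against 16.7% of all genes). Without medium replicate 1, 7 were called. Irf9, the DNA-binding subunit of the interferon-activated complex, was at 0.82, 0.99 and 0.82 in CpG-A and 0.00 in both medium arrays (0.88 ± 0.17 higher). Its partner Stat2 was at -1.66, -1.69 and -1.44 against -0.13 and 0.13, a clear change with open direction (-1.60 ± 0.14, or 1.73). Stat3, which transmits LIF and interleukin signals, was at 0.83, 0.83 and 0.86 against -0.06 and 0.06 (0.84 ± 0.12 higher). Socs3, an inhibitor that STAT3 induces, was open at -1.38 ± 0.18 (or 1.94). Irf4 (1.66 ± 0.25, or -1.66), Stat4 (1.63 ± 0.24, or -1.69) and Ifngr1, the ligand-binding chain of the interferon gamma receptor (-1.46 ± 0.18, or 1.87), were also open. Irf7, the factor that drives type I interferon genes, read lower at -0.72 ± 0.21 (or 2.60, adjusted p = 0.0236). Leaving out medium replicate 1 gave -0.53 (adjusted p = 0.268), leaving out the first CpG-A array gave -0.69 (adjusted p = 0.0658) and leaving out the second gave -0.67 (adjusted p = 0.0695), so the call rests on these arrays. Ifnar1 (0.06), Ifnar2 (0.00), Irf8 (-0.03) and Irf5 (0.06) were not called.

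Of 39 measured antiviral interferon-stimulated genes, 28 were called (71.8%, against 16.7% of all genes), but 15 of these were open, 9 read higher and 4 read lower. At the limit of 0.83, 4 read higher and 2 lower, and with the replicate number as a block 7 read lower. The median reading of 0.18 therefore says little about the list. Trim30a, a regulator of Toll-like receptor signalling, was at 1.11, 0.94 and 1.03 against 0.04 and -0.04 and read 1.03 ± 0.12 higher (adjusted p = 1.26e-05). The nuclear body protein gene Sp100 was at 0.89, 0.77 and 1.00 against -0.02 and 0.02 (0.89 ± 0.12 higher), and Samhd1, which depletes the building blocks of DNA, read 0.64 ± 0.14 higher. Oasl2, of the oligoadenylate synthetase family, read 0.92 ± 0.18 higher. The editing enzyme gene Adar was at 1.25, 1.53 and 1.29 against 0.16 and -0.16 and was open (1.36 ± 0.15, or -1.97). Ifit1, which binds foreign RNA ends, was at -1.38, -1.61 and -1.31 against -0.27 and 0.27 (-1.43 ± 0.18, or 1.89). Ifitm3, which blocks viral entry, was at 1.70, 1.55 and 1.69 against -0.22 and 0.22 (1.65 ± 0.19, or -1.67). Open members such as Ifit1 had groups as well separated as the readable ones. Eif2ak2, the kinase PKR, read lower at -0.89 ± 0.16, with 2.43 as its alternative. Ddx58, which encodes RIG-I, read lower at -0.96 ± 0.23, with 2.37 as its alternative, and its call was lost without medium replicate 1 (-0.85). Without that array, 2 members read lower. Mx1 (0.29), Mx2 (-0.08), Bst2 (0.32) and Oas2 (-0.02) were not called.

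**Figure D4:**
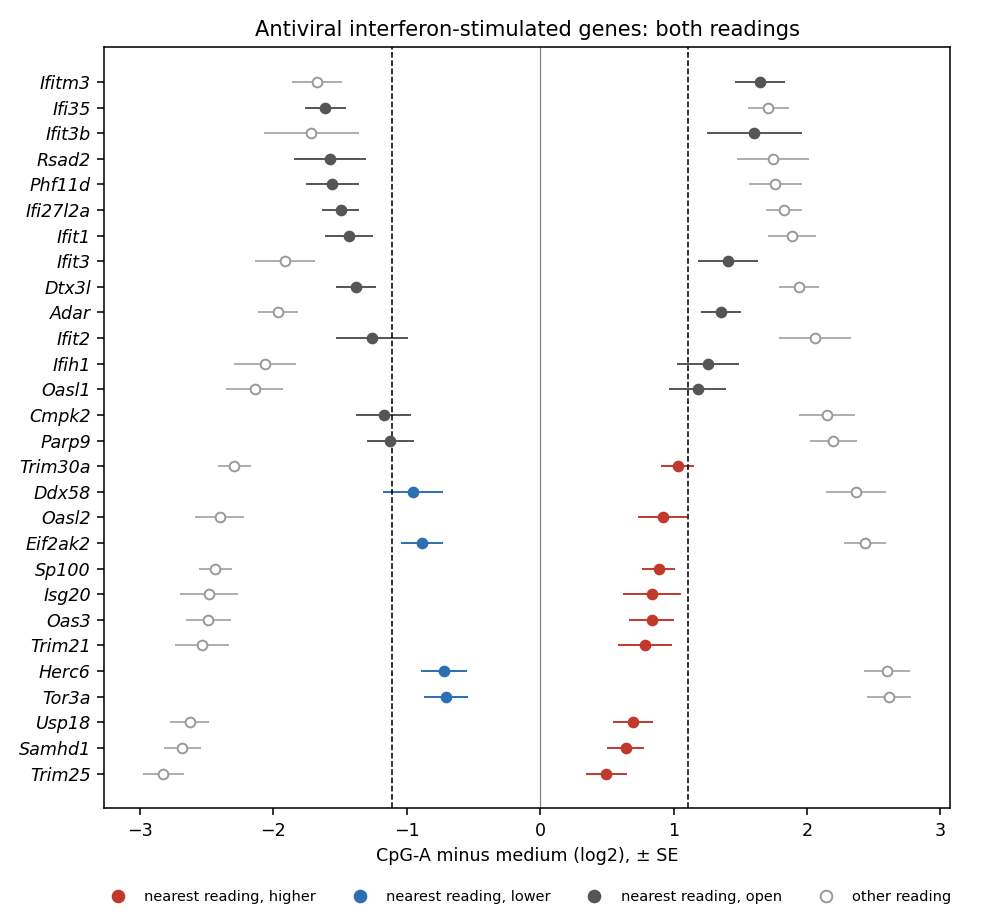
Nearest reading (filled) and alternative reading (open) of CpG-A minus medium on the log2 scale, with SE, for the 28 called antiviral interferon-stimulated genes. Dashed lines mark the limit on direction at 1.11. For 15 genes the nearest reading lies beyond it, and for Ifitm3 the readings on either side of 0 are almost the same size (1.65 and -1.67).

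Interferon-stimulated promoters often hold pairs of GAAA half-sites. Either strand of the promoter window was searched for a pair of GAAA separated by any 2 bases. It was found in 14 of 29 antiviral members with an entry (48.3%), against 3.88% of all genes. Of the 14, 11 were called, against 24 of the 29 with an entry. The pair was also in 3 of 13 MHC class I members with an entry, of which 0 were called. In the list of guanylate-binding proteins and immunity-related GTPases it was in 4 of 4, of which 2 were called. Sites of some called antiviral members are shown 5′ to 3′ in the orientation of the motif. Up to 6 flanking bases are given, and the half-sites are in capitals. Other members with the pair, such as Ifitm3, Eif2ak2, Ddx58 and the uncalled Bst2, are not shown. The whole upstream stretch is given for Trim30a, which had the lowest adjusted p of the readable members, and there the site is on the opposite strand and ends 26 bases before the start site.
Trim30a, chr7:104465194-104465443, minus strand: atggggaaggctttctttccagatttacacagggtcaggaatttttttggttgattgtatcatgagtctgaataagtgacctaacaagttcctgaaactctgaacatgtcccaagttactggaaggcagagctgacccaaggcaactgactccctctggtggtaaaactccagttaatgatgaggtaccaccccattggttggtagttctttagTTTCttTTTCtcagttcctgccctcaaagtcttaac
Ifit1, first site, chr19:34640779-34640800: agactgGAAAgtGAAActgaag
Ifit1, second site, chr19:34640798-34640819: cagtgaGAAActGAAActgaga
Ifit3, first site, chr19:34583367-34583388: gaagagGAAAgtGAAActtacc
Ifit3, second site, chr19:34583401-34583422: aaagtaGAAActGAAAcagact
Rsad2, chr12:26456557-26456578: ttttctGAAAatGAAAgttgga
Oas3, chr5:120777719-120777740: ggaggaGAAAacGAAAgtgaag
Ifit3, a partner of Ifit1, was open at 1.41 ± 0.22 (or -1.91), and Rsad2, which makes a chain-terminating nucleotide, at -1.58 ± 0.27 (or 1.74). Oas3, an oligoadenylate synthetase, read 0.83 ± 0.17 higher, and its call was lost without medium replicate 1 (0.67, adjusted p = 0.0505).

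Guanylate-binding proteins and immunity-related GTPases, which attack the vacuoles of intracellular microbes, were called in 5 of 9 measured members (55.6%, against 16.7% of all genes). Gbp4 was at -0.97, -1.03 and -1.07 against 0.09 and -0.09 and read -1.02 ± 0.14 lower (or 2.30). Irgm1 was at -0.96, -0.95 and -1.07 against 0.02 and -0.02 and read -0.99 ± 0.15 lower (or 2.33). Gbp11 (1.38 ± 0.21, or -1.94), Iigp1 (-1.56 ± 0.25, or 1.76) and Gbp7 (-1.23 ± 0.25, or 2.10) were open. In the Schlafen family, interferon-regulated genes that act on growth and translation, Slfn2 was at 1.43, 1.47 and 1.61 against 0.04 and -0.04 (1.51 ± 0.14, or -1.82). Slfn8 was also open (1.44 ± 0.18, or -1.88) and Slfn9 read 0.87 ± 0.20 higher. The share of the family called was 71.4%. Of 7 Schlafen genes 5 were called, and the count was 3 without medium replicate 1 and also with the arrays unfolded at their widest gap.

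NF-kB genes were called in 15 of 20 cases (12 without medium replicate 3), and 9 of them were open. None read lower, 6 read higher (3 at the limit of 0.83), and the median reading was 0.79. With 9 members open, the median says little about direction. Under LIF it was 0.155, with 11 open. The share called was 75%, against 16.7% of all genes. Nfkbid, a nuclear inhibitor protein, was at 0.87, 1.05 and 0.90 against -0.06 and 0.06 (0.94 ± 0.17 higher). Nfkbib, a cytoplasmic inhibitor, read 0.89 ± 0.16 higher, Birc3, a ubiquitin ligase of the TNF receptor complex, 0.78 ± 0.14, and Traf2, an adaptor there, 1.08 ± 0.20. The subunit genes Nfkb2 and Relb were open, at -1.64 ± 0.13 (or 1.68) and 1.64 ± 0.18 (or -1.68). So were the feedback inhibitors Nfkbia, at 1.37, 1.59 and 1.53 against 0.06 and -0.06 (1.50 ± 0.18, or -1.82), and Tnfaip3, at -1.43, -1.54 and -1.72 against 0.09 and -0.09 (-1.56 ± 0.16, or 1.76). The nearest readings of these feedback genes have opposite signs, which the lost decimal marks allow even where both changed the same way. Nfkbie (1.37 ± 0.17, or -1.95), Nfkbiz (-1.34 ± 0.15, or 1.99) and Tnip1 (1.30 ± 0.14, or -2.02) complete the open inhibitors with the lowest p. Rela (0.26) and Bcl3 (0.68, adjusted p = 0.0501) were not called.

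GGG followed by any 2 bases and TTTCC was searched on both strands of the promoter window as a simple form of the NF-kB site. It was present in 6 of 18 members with an entry (33.3%), against 1.82% of all genes. Of the 6, 5 were called, against 13 of the 18 with an entry. The upstream stretch of Nfkbia is shown as the textbook feedback target, with the site on the opposite strand. Sites of Nfkb2, Tnfaip3 and Rel are written in the orientation of the motif with up to 6 flanking bases. Traf2 and Cyld also hold a match and are not shown. Capitals mark the fixed letters.
Nfkbia, chr12:55492648-55492897, minus strand: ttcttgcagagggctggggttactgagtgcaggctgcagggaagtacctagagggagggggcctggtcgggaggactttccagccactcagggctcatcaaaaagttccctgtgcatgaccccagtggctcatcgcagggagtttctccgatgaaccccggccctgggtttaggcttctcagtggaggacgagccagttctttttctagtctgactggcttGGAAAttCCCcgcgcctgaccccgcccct
Nfkb2, first start site, chr19:46304720-46304736: ccgaaaGGGgcTTTCCc
Nfkb2, another start site, chr19:46305699-46305720: attttcGGGacTTTCCtaagca
Tnfaip3, chr10:19015411-19015428: agGGGgaTTTCCgatgga
Rel, chr11:23771045-23771066: agggggGGGgaTTTCCcgctgc
Rel, an NF-kB subunit of lymphoid cells, read 0.52 ± 0.15 higher, and leaving out medium replicate 3 (0.44, adjusted p = 0.16) or the first CpG-A array (0.49, adjusted p = 0.0547) lost the call.

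Cytokine genes were called in 10 of 23 cases (43.5%, against 16.7% of all genes). The gene of the cytokine Tnf was at -1.00, -0.89 and -1.13 against -0.10 and 0.10, a nearest reading of -1.01 ± 0.20 (adjusted p = 0.00131), and its alternative, 2.31, was the value obtained when the arrays were unfolded at their widest gap. Its direction is therefore not settled although it lies inside the limit. Tgfb1, which restrains immune cells, read -0.75 ± 0.16 lower (or 2.58), and Il27, a regulator of T cells, was at 1.08, 0.61 and 1.43 against 0.02 and -0.02 (1.04 ± 0.23 higher, or -2.28). Il1b, the inflammasome cytokine, was open at 1.61 ± 0.25 (or -1.71), and Il12a, a subunit of interleukin 12, at 1.42 ± 0.31 (or -1.90). Il6 (0.07), Il12b (0.33) and the death ligand gene Tnfsf10 (-0.81, adjusted p = 0.0534) were not called.

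Of 23 chemokine and chemokine receptor genes, 8 were called (34.8%, against 16.7% of all genes). The count depended on single arrays, being 2 without medium replicate 1 and 5 without CpG-A replicate 3. Ccl3, an inflammatory chemokine, was at -1.59, -1.52 and -1.46 against 0.26 and -0.26 (-1.52 ± 0.22, or 1.80), and Cxcl16, the ligand of CXCR6, was at 1.65, 1.64 and 1.04 against -0.25 and 0.25 (1.44 ± 0.25, or -1.88). Both were open with well separated groups. Cxcl10, a ligand of CXCR3 induced by interferon, was not called (0.16).

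Co-stimulatory and activation genes were called in 10 of 19 cases, and without medium replicate 1 the count was 4. The adhesion gene Icam1 was at -1.71, -1.33 and -1.58 against 0.02 and -0.02 (-1.54 ± 0.17, or 1.78), and Cd44, the hyaluronan receptor, at -1.30, -1.47 and -1.35 against -0.06 and 0.06 (-1.38 ± 0.16, or 1.95). Slamf7 was open at 1.25 ± 0.16 (or -2.08), and Cd69, an early activation marker that keeps cells in tissue, at 1.12 ± 0.20 (or -2.20). Cd86, a ligand of CD28, read lower at -0.86 ± 0.24 (or 2.46). Leaving out medium replicate 1 (-0.79, adjusted p = 0.124), medium replicate 3 (-0.94, adjusted p = 0.0613) or the second CpG-A array (-0.59, adjusted p = 0.073) lost the call. Cd40 (0.41) and Cd274, which encodes PD-L1 (0.01), were not called. The share of this list called was 52.6%, against 16.7% of all genes. Among inhibitory receptors, 9 of 18 were called (50%). The open ones included Ceacam1 (1.50 ± 0.14, or -1.82), Siglecg (1.30 ± 0.18, or -2.03), Havcr2, which encodes TIM-3 (1.55 ± 0.26, or -1.77), and Lilrb4a (-1.28 ± 0.23, or 2.04).

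Of 24 measured transcription factors of the dendritic cell lineages, 15 were called (62.5%, against 16.7% of all genes), 2 higher, 9 lower and 4 open. At the limit of 0.83, 0 read higher, 6 lower and 9 were open. The median was -0.38, and without medium replicate 1 the number that read lower was 5. Runx1, a factor of blood cell development, was at -0.80, -0.85 and -0.76 against -0.03 and 0.03 (-0.80 ± 0.15 lower). Zeb2, which supports the plasmacytoid lineage by repressing Id2, was at -0.71, -0.74 and -0.70 against 0.04 and -0.04 (-0.72 ± 0.12 lower). Hhex, a homeobox repressor, read -1.01 ± 0.15 lower, and Cbfa2t3, a corepressor that binds E proteins, -0.87 ± 0.18. In each of these genes all CpG-A arrays lay below both medium arrays, and the groups did not overlap in 3290 of the 3300 called genes. Mef2c, a factor of lymphoid and dendritic progenitors, read 1.10 ± 0.16 higher, close to the limit. Id2, the inhibitor of E proteins, was at 1.45, 1.52 and 1.56 against 0.07 and -0.07 (1.51 ± 0.18, or -1.81). Ikzf1 (-1.17 ± 0.16, or 2.15), Myc (-1.41 ± 0.20, or 1.91) and Flt3, the growth factor receptor of dendritic progenitors (1.15 ± 0.17, or -2.17), were open too. Tcf4, the E protein that defines the lineage, read -0.38 ± 0.13 lower with adjusted p = 0.049, and the call was lost without any 1 of the 5 arrays (readings -0.34 to -0.42, adjusted p = 0.067 to 0.236). It was also lost with the replicate block (adjusted p = 0.0638), on the 5 arrays alone (0.116), with centring (0.0704), with robust moderation (0.0506) and with the filter on noisy genes (0.0556). Spib, which acts with TCF4, was not called (0.26).

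Surface and effector genes of the cell type were called in 12 of 20 cases (60%, against 16.7% of all genes), 8 of them open. Siglech, which was part of the sorting gate, was at -0.61, -0.48 and -0.63 with CpG-A and 0.00 in both medium arrays (-0.58 ± 0.15, or 2.75; adjusted p = 0.00941). Leaving out medium replicate 1 (-0.58, adjusted p = 0.0641) or medium replicate 3 (-0.57, adjusted p = 0.0659) lost the call. Itgax, which encodes CD11c, another gate marker, was open at 1.51 ± 0.24 (or -1.81), and Ptprc, the source of B220, was not called (0.04 ± 0.12). The cells were sorted before culture, so the gate did not act on the cultured cells. Lag3, an inhibitory receptor that these cells express, was at 1.37, 1.76 and 1.31 against -0.06 and 0.06 (1.48 ± 0.15, or -1.84). Cd8a read 0.97 ± 0.17 higher. Cox6a2 (-1.50 ± 0.14, or 1.82), the metabolic gene Upb1 (-1.55 ± 0.18, or 1.77) and the receptor phosphatase Ptprs (-1.30 ± 0.17, or 2.02) were open. In bulk RNA, fewer cells of a type and less RNA per cell cannot be told apart.

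On MHC class II, 6 of 15 members were called (40%, against 16.7% of all genes). H2-DMa, a chain of the peptide exchange factor, was at 1.30, 1.81 and 1.71 against 0.04 and -0.04 (1.61 ± 0.17, or -1.72). H2-Ob, a chain of its inhibitor, was open at -1.39 ± 0.24 (or 1.93), and Rfxap, a subunit of the complex that binds class II promoters, read -0.78 ± 0.17 lower. The class II chains H2-Aa (-0.09), H2-Ab1 (-0.15) and H2-Eb1 (-0.19), the invariant chain Cd74 (-0.13) and the transactivator Ciita (-0.61, adjusted p = 0.202) were not called.

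Lysosomal genes were called in 13 of 24 cases, 8 higher, 1 lower and 4 open, and 5 read higher without medium replicate 1, medium replicate 3 or CpG-A replicate 3, and on the 5 arrays alone. At the limit of 0.83, 7 were open. The share of the list called was 54.2%, against 16.7% of all genes. The membrane protein gene Lamp1 was at 0.84, 0.99 and 0.88 against -0.03 and 0.03 (0.91 ± 0.12 higher, adjusted p = 3.06e-05). Npc2, which carries cholesterol in the lysosome, read 0.82 ± 0.12 higher, the calcium channel gene Mcoln1 0.86 ± 0.15 and progranulin, Grn, 0.51 ± 0.11. Gusb, beta-glucuronidase, read -0.94 ± 0.20 lower. The mannosidase Man2b1 (-1.23 ± 0.14, or 2.09) and the proton pump subunit Atp6v1h (1.25 ± 0.15, or -2.08) were open. The cathepsin genes Ctsb (0.00), Ctsd (-0.09) and Ctsl (0.00) were not called.

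In cholesterol synthesis and export, 6 of 23 were called, 5 higher and 1 lower, but 0 were called without medium replicate 1, 3 without medium replicate 3, 3 without CpG-A replicate 1 and 2 without CpG-A replicate 3. With the replicate block, and on the 5 arrays alone, 3 read higher. Tm7sf2, a sterol reductase, read -0.85 ± 0.18 lower, and its call was lost without medium replicate 1 (-0.52, adjusted p = 0.0904). Lanosterol synthase, Lss (0.34), squalene epoxidase, Sqle (0.08), and Srebf2, which drives the pathway (-0.23), were not called. In glycolysis 5 of 18 were called, 3 without medium replicate 1 and 2 without medium replicate 3, and the aldolase gene Aldoc was open at -1.26 ± 0.20 (or 2.06). In the respiratory chain 1 of 29 was called, and 0 without medium replicate 1, CpG-A replicate 1 or CpG-A replicate 2. In ribosome biogenesis, 5 of 23 were called, 2 without medium replicate 3 and 3 on the 5 arrays alone. The nucleolar methyltransferase gene Fbl was at -1.20, -1.06 and -0.81 against 0.03 and -0.03 (-1.03 ± 0.16 lower), and Dkc1, the pseudouridine synthase, read -0.94 ± 0.18 lower. Among immunometabolic enzymes 10 of 16 were called (62.5%, against 16.7% of all genes). The other shares called were 26.1% for cholesterol, 27.8% for glycolysis, 3.45% for the respiratory chain and 21.7% for ribosome biogenesis. Nos2, the inducible nitric oxide synthase, read 0.73 ± 0.16 higher, Odc1, the first enzyme of polyamine synthesis, -1.02 ± 0.20 lower, and Nampt, of NAD salvage, was open at -1.26 ± 0.16 (or 2.06).

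Immediate early and quiescence genes were called in 13 of 26 cases (50%, against 16.7% of all genes). Junb read 0.93 ± 0.17 higher, and its relatives Jund (1.19 ± 0.19, or -2.13) and Jun (-1.29 ± 0.24, or 2.03) were open. Egr1 was at 1.26, 0.91 and 1.47 against 0.14 and -0.14 (1.21 ± 0.19, or -2.11). Zfp36l2, which destabilises messenger RNA, read -1.00 ± 0.18 lower. Ppp1r15a, a phosphatase subunit that ends the stress block on translation, was open at -1.60 ± 0.17 (or 1.72). Fos (0.17), Fosb (0.33), Nr4a1 (0.04) and Btg2 (-0.04) were not called. Of 13 BCL2 family and caspase genes 5 were called, with 1 to 3 called when any 1 of the 5 arrays was left out. Casp8, the caspase that starts death receptor signalling, was open at 1.23 ± 0.13 (or -2.09). The share of BCL2 family and caspase genes called was 38.5%.

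Among the readable genes outside the lists with the lowest adjusted p, those that read higher included Nploc4, a cofactor of the segregase that pulls proteins from the endoplasmic reticulum, at 1.25, 1.14 and 0.93 against -0.07 and 0.07 (1.10 ± 0.13, adjusted p = 1.12e-05), and Sec23b, a subunit of the COPII coat, at 0.95, 1.10 and 1.07 against 0.01 and -0.01 (1.04 ± 0.13). Ncf1, a subunit of the phagocyte oxidase, read 1.10 ± 0.13 higher, the ubiquitin ligase gene Rnf34 1.05 ± 0.13, the nuclear pore gene Nup98 1.08 ± 0.14 and the myosin gene Myo1g 1.09 ± 0.14. Those that read lower included Inpp5k, a phosphoinositide phosphatase, at -1.03, -1.00 and -1.11 against -0.12 and 0.12 (-1.05 ± 0.12, adjusted p = 1.28e-05), and Cbl, a ubiquitin ligase of receptor kinases, at -1.08, -1.09 and -1.05 against -0.08 and 0.08 (-1.07 ± 0.14). The genes of this paragraph were picked only from those whose groups did not overlap, so the lack of overlap is not a result. Tfrc, the transferrin receptor, read -0.98 ± 0.14 lower, Eif4ebp2, a repressor of translation, -1.01 ± 0.14, Wasf2, which drives actin branching, -0.97 ± 0.13, and Lamtor4, of the complex that anchors mTORC1 to lysosomes, -1.08 ± 0.14. Ptpra, Rapgef6, Dennd3, Ankmy2, Rev3l and Ttc3 read lower by -0.91 to -1.10. Other open genes with the lowest p were Tomm70a, a mitochondrial import receptor (-1.65 ± 0.15, or 1.67), Usp25 (1.51 ± 0.13, or -1.81), Gng10 (-1.50 ± 0.14, or 1.82) and Stx11 (-1.60 ± 0.13, or 1.72).

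Markers of other cell types that the sorted fraction could hold were measured beside these groups. The shares called were 7.69% for T and NK cell, 27.3% for neutrophil and 30.8% for B cell markers, against 16.7% of all genes. For conventional dendritic cell markers the share was 33.3%, and for monocyte and for plasma cell markers 40%. Erythroid and megakaryocyte markers gave 0 of 7 calls by limma, and 1 had an unadjusted p under 0.05 (Ppbp, -0.63). T and NK cell markers gave 1 of 13, which was Klrd1 (1.59 ± 0.22, or -1.73), with Cd3e at -0.07 and Ncr1 at 0.10. B cell markers gave 4 of 13, and 2 without medium replicate 1. Among them Fcer2a read -0.91 ± 0.18 lower and Cd79b was open at -1.41 ± 0.19 (or 1.91), while Pax5 (0.26) and Ms4a1 (-0.08) were not called. Monocyte and macrophage markers gave 6 of 15, with Csf1r at -1.48 ± 0.22 (or 1.84), Adgre1 at -1.45 ± 0.25 (or 1.87; adjusted p = 0.0582, not called, with unfolding at the widest gap) and Lyz2 at -1.56 ± 0.32 (or 1.76) all open, and Cd68 (0.12) and Cd14 (0.40) not called. Neutrophil markers gave 3 of 11 (1 without medium replicate 3, 7 with the replicate block), with Prtn3 open at 1.63 ± 0.32 (or -1.69), conventional dendritic cell markers 3 of 9, with Sirpa at -0.78 ± 0.14, and Clec9a (-0.06) and Xcr1 (-0.06) not called, and plasma cell markers 2 of 5, with Sdc1 open at -1.44 ± 0.19 (or 1.88). Because levels are lost, the amount of such RNA in either group cannot be given, and its part in the results above was not tested.

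The same stimulus in the presence of LIF was measured on 6 other arrays. Both comparisons come from the same fit, with a shared estimate of the spread of each gene, so their calls are not independent. In CpG-A + LIF vs LIF, 3430 genes were called (17.4%), 1230 higher (6.23%), 1440 lower (7.29%) and 760 open (3.85%). Of the 970 genes that read higher with CpG-A alone, 566 read higher there too, 0 read lower, 63 were open and 341 were not called. Of the 1413 that read lower, 710 read lower, 3 read higher, 96 were open and 604 were not called. Readings had the same sign in 94.5% and 94.3% of these genes. Both comparisons have the same lost decimal marks, so a shared sign does not test the direction. Of the 917 open genes, 488 were open in both, and 69.7% had readings within 0.5 of each other when counted around the period of 3.32. Hspa5 read 0.96 ± 0.11 higher under LIF, Manf 0.75 ± 0.10, Pdia3 0.62 ± 0.10 and Tlr9 0.77 ± 0.11. Cdc20 read -0.79 ± 0.13 and Plk1 -0.95 ± 0.20. In the unfolded protein response list 23 of 34 members were called under LIF, 14 higher and 2 lower, and in mitosis 16 of 22, 0 higher and 12 lower. MHC class I members were called in 12 of 16 cases, 9 of them higher.

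**Figure D5:**
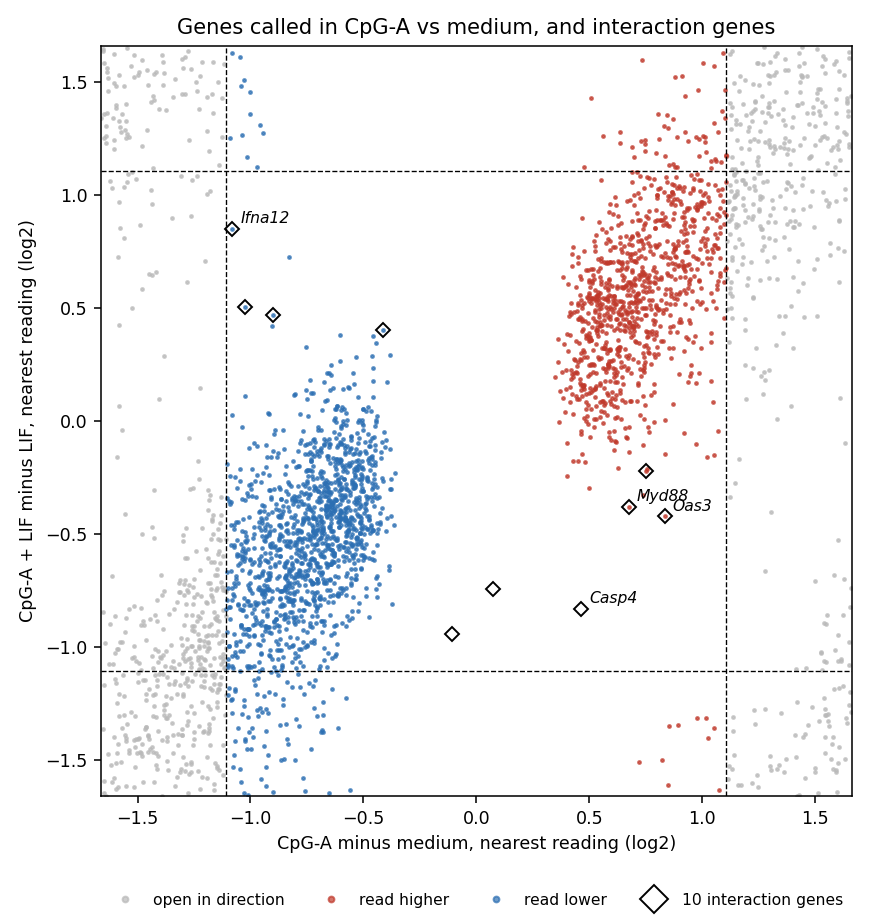
Nearest reading of CpG-A + LIF minus LIF (vertical axis, log2) against that of CpG-A minus medium (horizontal axis, log2) for the 3300 genes called in CpG-A vs medium, coloured by that call. Dashed lines mark the limit on direction at 1.11, and diamonds mark 10 genes past the interaction test, 3 of which were not called against medium (Casp4, Tbc1d9 and Igsf10). Most points that read higher or lower lie on the same side of 0 in both (94.5% and 94.3%), and points in opposite corners can be close around the period.

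The response to CpG-A was compared between the 2 backgrounds by an interaction test, with the readings within the limit on both sides. Of 278 genes past the threshold (1.41%), 237 differed by more than 1.66, so that their readings can be close around the period, as those of Stat2 (-1.60 and 1.48) are. The condition was met by 23 (0.116%), by 12 without CpG-A replicate 1, by 15 without either medium array, by 37 with the replicate block and by 3 with unfolding at the widest gap. Myd88 read 0.67 ± 0.16 higher with CpG-A alone and -0.38 ± 0.14 under LIF, where it was not called, a difference of -1.05 ± 0.21 (limma adjusted p = 0.00946). That difference missed the threshold without either medium array, at adjusted p = 0.0525 without replicate 1 and 0.0523 without replicate 3. Oas3 read 0.83 ± 0.17 and -0.42 ± 0.15, a difference of -1.26 ± 0.23 (or 2.06, adjusted p = 0.00267). The inflammatory caspase gene Casp4 was at 0.46 ± 0.17, not called, with CpG-A alone and -0.83 ± 0.15 under LIF, a difference of -1.30 ± 0.23 (adjusted p = 0.00192). Ifna12 was at -1.08 ± 0.25 and 0.85 ± 0.23, a difference of 1.93 ± 0.34 (adjusted p = 0.0021). That is beyond 1.66, and its alternative, -1.39, is nearer to 0, so the direction of this difference is open.

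CpG-A shares its arrays with the comparison of CpG-A and CpG-B (oligonucleotide 1826, 6 µg/ml, 19 to 23 h, 3 arrays), so that comparison is not independent and its values are given side by side only. There 2560 genes were called (13%), 873 higher with CpG-A (4.42%), 1212 lower (6.14%) and 475 open (2.4%). For Hspa5, CpG-A minus CpG-B was -0.16, for Manf -0.21, for Dnajb11 -0.03, for Plk1 0.16 and for Cdc20 0.14, and none was called. For Tlr9 it was 0.56, for Irf9 0.62 and for Sp100 0.58, all called higher with CpG-A. In the unfolded protein response list 9 of 34 members were called, 2 higher with CpG-A, 6 lower and 1 open (median -0.13). In mitosis 1 of 22 members was called between the classes, in MHC class I 1 of 16 and in the antiviral list 19 of 39, with 18 higher, 0 lower and 1 open. Nucleolar ribosome biogenesis, with 5 of 23 called against medium, had 22 of 23 called between CpG-A and CpG-B, 1 higher with CpG-A, 9 lower and 12 open, and a median of -1.06.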

How the data were processed

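Each array is one sample of sorted plasmacytoid dendritic cells. The deposited values are of another kind than a usual expression table: per the submitters' processing notes the arrays were summarised with RMA (version not given in the sources used here), and the authors' table holds the digits of linear intensities without their decimal marks (1 of 419560 cells kept its mark). The log2 of each value was therefore taken modulo 3.32 (log2 of 10). Of 24680 probe sets, 21354 had 1 gene symbol in the platform annotation, 1275 had several and 2051 none. For the 893 genes with several probe sets, the one with the most accessions was used. Array values are given relative to the mean of the medium arrays. Values were unfolded around each group's circular mean and fitted with limma 3.58.1 (R 4.3.3) over all 17 arrays, with Benjamini-Hochberg adjustment over 19751 genes. Every adjusted p in the text comes from this fit or its alternatives. Errors are SEs of the difference. With 2 and 3 arrays, their number limits the precision.

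The members and gene lists were chosen with earlier results of these data known. Named genes are, in each list, called members led by those with the lowest adjusted p, with the CpG receptor, sorting markers and all interferon genes. Others are the 12 readable genes with the lowest adjusted p in each direction, 6 open genes, and up to 10 interaction genes. Those readable and open genes were taken only from genes whose CpG-A and medium arrays did not overlap. Members that were not called, and named beside them, were picked as familiar genes after their values were seen. Promoters of 250 bases before to 50 after the start site came from RefSeq (GRCm38.p6). The fit was tested on simulated data. Alternatives were each array left out, the replicate number as a block, only the 5 arrays, another probe set, unfolding at the widest gap, median centring, robust moderation, a filter on noisy genes and a narrower limit on direction. A filter on low values could not be made, since levels are lost.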

Additional observations from a re-analysis of the deposited data

Results flagged for a closer look

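The response to CpG-A differed between cells without and with LIF in the genes below, by limma's interaction test with both readings inside the limit on direction. The 10 with the lowest adjusted p are given, each as the response under LIF minus the response without it. Casp4 differed by -1.298 (or 2.02, adjusted p = 0.00192), Ifna12 by 1.929 (adjusted p = 0.0021) and Oas3 by -1.258 (or 2.06, adjusted p = 0.00267). Each of these 3 differences had an adjusted p under 0.05 in each setting in which it was tested, and the filter on noisy genes left out Ifna12. The difference in Ifna12 is beyond 1.66 and its alternative is -1.39, so its direction is open. Without CpG-A replicate 1 it was 2.21, with a reading beyond the limit on direction. Myd88 differed by -1.054 (adjusted p = 0.00946). Its call was lost without medium replicate 1 (adjusted p = 0.0525), without medium replicate 3 (adjusted p = 0.0523) and with unfolding at the widest gap (adjusted p = 0.0609).

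Hsd11b1, which regenerates active glucocorticoid, differed by -0.9699 (adjusted p = 0.0108), and the call was lost without medium replicate 1 (adjusted p = 0.142). Gkap1 differed by 1.526 (or -1.80, adjusted p = 0.0123), so its direction is open. The call was lost without medium replicate 3 (1.31) and with another probe set (adjusted p = 0.768). Without medium replicate 1 or the second CpG-A array a reading of Gkap1 lay beyond the limit. Serpina1c differed by 1.37 (or -1.95, adjusted p = 0.0219) and is open in direction too. Its call was lost without medium replicate 1 (1.22), the first CpG-A array (adjusted p = 0.0796) or the third LIF array (adjusted p = 0.0634). Tbc1d9 (-0.8336, adjusted p = 0.0155), Igsf10 (-0.8168, adjusted p = 0.0261) and Toporsl (0.8138, adjusted p = 0.0261) lost the call without medium replicate 1 (adjusted p = 0.0788, 0.0931 and 0.14) and without medium replicate 3 (adjusted p = 0.0725, 0.136 and 0.0864). They also lost it without some arrays of the other groups. Each of these 6 genes lost it with unfolding at the widest gap as well.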

How the results depend on the processing

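Leaving out each array of the comparison in turn gave 2128 to 2941 called genes, 511 to 807 that read higher and 727 to 1181 that read lower, with the lowest counts without medium replicate 1. The interaction count of 23 ranged from 12 to 33 when each array of the 4 groups was left out. It was 37 with the replicate block and 3 with unfolding at the widest gap, and the cause was not tested. Same-numbered medium and CpG-A arrays had deviations correlated at -0.0288 and -0.0223. Over all groups 6 of 40 same-numbered pairs were over 0.1, among them the 3 of CpG-B and CpG-B + LIF (0.126, 0.243 and 0.143), against 2 of 80 others, so the numbers were not taken to pair the groups compared here. With the block 3328 genes were called against medium. A limit on direction of 0.83 left 1671 genes open, since it admits fewer readings. Unfolding at the widest gap turned Tnf (2.31), Ccl5 (2.29), Tigit (2.24) and Ccl4 (0.83, adjusted p = 0.278 by limma). It turned 24 readable genes in all (6 higher, 18 lower), and another probe set turned 4. Counts in CpG-A vs medium under the other settings stayed within 1.5 times: 3020 called on the 5 arrays alone, 3278 with another probe set, 3238 with centring, 3289 with robust moderation and 3151 with the filter on noisy genes. That filter also removes members, and left 4 of 8 cytokine, 4 of 12 chemokine, 4 of 6 immunometabolic and 2 of 5 monocyte genes called. Of the interferon genes it left 2, with 0 called, and of the neutrophil markers 0. With 2 medium arrays and lost decimal marks, changes near 10-fold and the direction of those near 3.16-fold could not be seen. A change from 4.64-fold up to nearly 10-fold would be read the opposite way. Changes of more than 10-fold would be read as smaller ones.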
